A study of Mus musculus with 4 samples.

Results

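Glucocorticoid signalling was described through 10 genes measured in single cells of the mouse lung: the receptor genes Nr3c1 and Nr3c2, the activating enzyme gene Hsd11b1, and the induced genes Zbtb16, Fkbp5, Per1, Tsc22d3, Klf9, Sgk1 and Hif3a. They were taken by symbol, 10 of 57010 genes in the count table, and read in cells with at least 500 detected genes. The set was chosen by measured values: Zbtb16, Sgk1 and Hif3a differ between the genotypes in alveolar type 2 (AT2) cells, so their values in that comparison are a description and support nothing. The Cre_Pos suspension pooled the lungs of 6 mice carrying Shh-Cre and floxed p73 (Trp73, exons 7 to 9), and the Cre_Neg suspension pooled 6 littermates that were homozygous for the same floxed allele without Cre. Both are C57Bl6/J at 8 weeks of age, and the labels do not say whether the Cre_Pos mice carried 1 or both floxed copies. Shh-Cre is driven by the Sonic hedgehog locus and acts in the lung epithelium, so endothelial, stromal and blood cells of the Cre_Pos mice are not its direct target. Beads removed leukocytes (CD45) and enriched epithelium (EpCAM), and live DAPI-negative cells were then sorted, so the shares of cell types are not those of the lung. The single-cell method was SPLiT-seq, in which fixed cells receive combinations of barcodes over several rounds. The samples were 4 sublibraries, technical aliquots that each held both pools, and with 1 pool per genotype no test between genotypes was possible.

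Glucocorticoids enter cells freely and bind the glucocorticoid receptor, encoded by Nr3c1, which then leaves a chaperone complex, moves to the nucleus and binds DNA elements built of a pair of TGTTCT repeats facing each other. The mineralocorticoid receptor, encoded by Nr3c2, binds the same hormones with high affinity, and 11beta-hydroxysteroid dehydrogenase type 1, encoded by Hsd11b1, regenerates active hormone inside cells. In the lung, glucocorticoids drive maturation of the alveolar epithelium and surfactant before birth and dampen inflammation in the adult. Blood hormone follows a daily rhythm and stress, and genes such as Per1, Fkbp5 and Zbtb16 follow it in many tissues.

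Promoter windows of 8 of the 10 genes were read from RefSeq tables of build GRCm38.p6, 16 windows of 250 bases before to 50 after an annotated start. Zbtb16 and Nr3c1 had no window used, so their promoters were not searched. More of the windows were starts of Sgk1 than of any other gene. The full palindrome, AGAACA followed after 3 bases by TGTTCT and searched on both strands, stood in 1 of them, a start of Sgk1, and in 3 of 32851 windows of all genes. The looser form GNACA, 3 bases and TGTNC, which every full palindrome also matches, was in the same 1 window and in 0.475% of all windows. The single repeat TGTTCT, which the palindrome also contains, was in 4 of the 16 windows and in 19.0% of all. The E-box CACGTG, bound by the clock factors CLOCK and BMAL1, was in 3 windows, at Sgk1, Per1 and Fkbp5, and in 7.15% of all windows. These matches are letters in a window, not shown sites. The 2 windows below are printed because they carry the palindrome and a clock element of a gene followed here. Capitals mark the palindrome in the Sgk1 window and the E-box in the Per1 window.
Sgk1, chr10:21993640-21993939, plus strand: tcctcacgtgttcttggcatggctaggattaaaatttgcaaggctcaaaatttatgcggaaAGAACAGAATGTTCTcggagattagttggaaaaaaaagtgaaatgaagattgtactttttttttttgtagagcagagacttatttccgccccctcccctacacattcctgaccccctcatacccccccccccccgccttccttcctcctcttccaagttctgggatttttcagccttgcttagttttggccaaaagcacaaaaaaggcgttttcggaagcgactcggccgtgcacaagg
Per1, chr11:69098699-69098998, plus strand: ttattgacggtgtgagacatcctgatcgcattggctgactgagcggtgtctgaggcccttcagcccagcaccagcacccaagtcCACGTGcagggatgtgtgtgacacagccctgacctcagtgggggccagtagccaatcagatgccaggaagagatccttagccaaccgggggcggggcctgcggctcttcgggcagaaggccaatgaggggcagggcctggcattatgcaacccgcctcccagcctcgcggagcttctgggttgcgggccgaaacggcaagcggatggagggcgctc
In the Sgk1 window the palindrome begins at base 62 and an E-box, left in lower case, at base 5. In the Per1 window the E-box begins at base 85.

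The files held 647296 barcodes and 191160309 transcript counts (unique molecular identifiers, UMIs). After cell filters 16356 cells were kept, 8660 Cre_Pos with a median of 8219 UMIs and 7696 Cre_Neg with a median of 8714, against 20000 cells that the labels state. Of the kept cells, 542 shared a 3-well barcode with a cell of another sublibrary. Cells were clustered without the 10 genes, and clusters were named by marker genes, so AT2-like means that the AT2 markers passed in the cluster, and the other class names are used in the same sense. The AT2-like class held 1278 Cre_Pos and 1895 Cre_Neg cells in 3 clusters, all of which passed 9 of 9 AT2 markers. Trp73 was not used to check the labels, since counts over the whole gene can include exons outside the deleted stretch. It was at 316 CPM (699 UMIs) in Cre_Pos and 334 CPM (6605 UMIs) in Cre_Neg ciliated-like cells. Over all kept cells it was at 11.8 CPM in Cre_Pos and 85.8 CPM in Cre_Neg, and ciliated-like cells were 1.36% and 15.7% of these pools. Whether the Cre_Pos ciliated-like cells had lost the exons was not tested. In AT2-like cells Trp73 had 4 UMIs in the Cre_Pos and 2 in the Cre_Neg pool. Levels are in counts per 1000000 UMIs of the class (CPM), which are not divided by gene length and are therefore compared only between classes or pools for the same gene. Intervals are at 95% and describe counting error alone, not differences between mice.

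The receptor was found in every one of the 24 classes with at least 50 cells. Nr3c1, the receptor itself, was highest in neutrophils at 710 ± 137 CPM (SD over 4 sublibraries) and lowest in ciliated-like cells at 62.5 CPM, with AT2-like cells in 19th place at 207 ± 6.52 CPM. The neutrophils were 4 Cre_Pos and 59 Cre_Neg cells, so their level comes almost wholly from Cre_Neg. From dendritic cells, which were second, down to the Krt8 transitional class, no neighbouring classes differed by more than the spread between sublibraries. Nr3c2, the mineralocorticoid receptor, ran in another order. It was highest in neuroendocrine cells at 815 CPM and in secretory cells at 651 CPM, and AT2-like cells were 6th at 221 CPM. Monocytes had 7 UMIs of Nr3c2 and neutrophils none of any sublibrary, so the class with the most Nr3c1 had no detected Nr3c2.

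Hsd11b1, the enzyme that regenerates active hormone, was detected at over 100 CPM in 4 classes. Alveolar fibroblasts had 712 ± 61.8 CPM, natural killer (NK) cells 364 ± 86.6, pericytes 354 ± 91.0 and T cells 126 ± 17.2 (SD over 4 sublibraries). AT2-like cells had 12 UMIs in 3173 cells, or 0.285 CPM, and secretory cells none. Free RNA, taken from barcodes with at most 50 UMIs, held more, 19.3 CPM in Cre_Pos and 14.5 CPM in Cre_Neg, and its share in the few AT2 UMIs was not tested. H6pd, which supplies the enzyme with its cofactor, had 2465 Cre_Pos and 2785 Cre_Neg UMIs in AT2-like cells.

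The induced genes split into different rankings over cell classes. Zbtb16, a zinc finger transcription factor, was highest in alveolar fibroblasts at 2831 ± 95.2 CPM, then in other blood endothelium at 1968 ± 53.1 and in aerocytes, the gas-exchange capillary cells, at 1419 ± 62.5 (SD over 4 sublibraries). AT2-like cells were 7th at 755 CPM, while alveolar macrophages had 15.5 CPM. Klf9, a Kruppel-like factor, had a similar order, with alveolar fibroblasts at 495 CPM and other blood endothelium at 346 CPM. Fkbp5, an immunophilin that lowers the receptor's affinity for hormone, ran differently, with alveolar macrophages at 463 CPM, AT2-like cells at 14.1 CPM and aerocytes lowest at 5.40 CPM. Tsc22d3, which encodes the anti-inflammatory protein GILZ, and Per1, a clock repressor, were both highest in neutrophils, at 408 and 526 CPM. Sgk1, a kinase that raises sodium transport, was highest in alveolar macrophages at 463 ± 13.4 CPM and was near its minimum in AT2-like cells at 3.69 CPM, 22nd of 24. Alveolar macrophages were 3 Cre_Pos and 201 Cre_Neg cells and neutrophils 4 and 59, so the levels of both classes come almost wholly from Cre_Neg. Hif3a, which encodes a subunit of the hypoxia-inducible factors, was low everywhere, with a maximum of 28.6 CPM in pericytes from 29 UMIs.

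**Figure D1:**
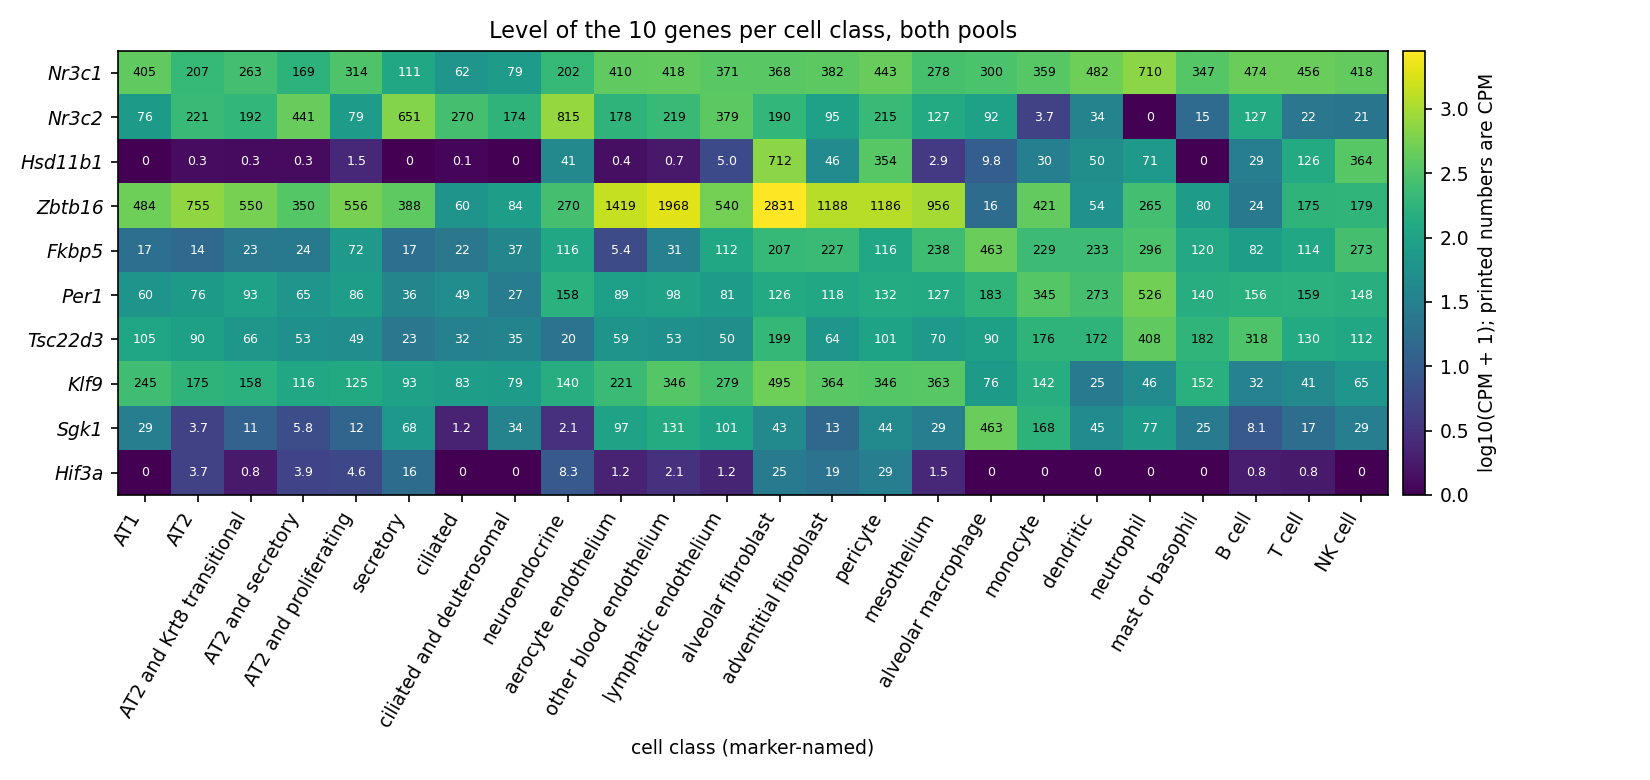
Heat map of the 10 genes (rows) over the 24 cell classes with at least 50 cells (columns), both pools together; colour is log10(CPM + 1) and the printed numbers are CPM. Rows are not scaled to gene length and should be read along a row: Zbtb16 peaks at 2831 CPM in alveolar fibroblasts, Hsd11b1 at 712 CPM in the same cells, and Nr3c2 at 815 CPM in neuroendocrine cells. The alveolar macrophages and neutrophils were almost wholly Cre_Neg cells.

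By Pearson's r of log2(CPM + 10) over the 24 classes, given as a description, Zbtb16 was most like Lncppara (0.84), Nfic (0.83) and Arhgap29 (0.83), and among the 10 genes like Klf9 (0.82). Fkbp5 was most like Cers6 (0.82), Nr3c1 like Wasf2 (0.86) and Hsd11b1 like Pik3r1 (0.83). The r of Fkbp5 with Zbtb16 was -0.22. The classes share libraries and differ in depth.

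The first comparison asked how the genes differ between p73-flox mice with and without Shh-Cre in AT2 cells, the surfactant-making cells of the alveolus. A gene was said to pass when it had at least 20 UMIs, differed at least 1.5-fold and had the same sign in the 4 sublibraries. Of the 9 genes with at least 20 UMIs, 3 passed as lower in Cre_Pos, against 1.95% of 14709 genes, and 0 passed as higher, against 1.71%. These 3 are the genes by which the set was chosen, so the count carries no weight. The median log2 ratio, Cre_Pos over Cre_Neg, was -0.42 over the 9 genes and 0.01 over all genes. The median of the 9 includes the 3 chosen genes and carries no weight either.

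Zbtb16 stood at 454, 487, 470 and 522 CPM in the sublibraries of the Cre_Pos pool, against 974, 965, 988 and 1005 CPM in those of the Cre_Neg pool. The ranges did not overlap, and Cre_Pos was 2.03-fold lower, with a log2 ratio of -1.02 (-1.06 to -0.99) from 9264 Cre_Pos and 22494 Cre_Neg UMIs. Sgk1 was near the detection floor, at 0.93, 3.62, 1.54 and 1.78 CPM in Cre_Pos and 5.11, 4.87, 4.22 and 6.0 CPM in Cre_Neg, or 40 and 115 UMIs. Each Cre_Pos value lay below every Cre_Neg value, and the log2 ratio was -1.26 (-1.82 to -0.73). Hif3a had 38 Cre_Pos and 119 Cre_Neg UMIs and a log2 ratio of -1.39 (-1.96 to -0.85), with 1.86, 1.55, 1.98 and 2.67 CPM against 6.44, 6.20, 2.99 and 5.03 CPM. Sgk1 and Hif3a rest on few molecules, and Zbtb16 on many. In the Y-only AT2-like cells defined below Sgk1 was at 0.083 and Hif3a at 0.20. Neither was among the 7 genes with at least 20 UMIs in those cells, so these values do not show that the difference is absent there. In cells thinned to 2000 UMIs Sgk1 was at 0.063 from 5 Cre_Pos and 7 Cre_Neg UMIs.

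Of the genes not named in the choice, Per1 was at 61.4 CPM in Cre_Pos and 87.5 CPM in Cre_Neg, with a log2 ratio of -0.51 (-0.62 to -0.41). Klf9 had 150 and 197 CPM in Cre_Pos and Cre_Neg and a ratio of -0.39 (-0.46 to -0.33), and Tsc22d3 had 77.5 and 101 CPM and a ratio of -0.38 (-0.47 to -0.28). For these 3 genes all 4 sublibraries were lower in Cre_Pos, each by less than the 1.5-fold rule over all cells. Fkbp5 was at 11.96 CPM in Cre_Pos and 15.98 CPM in Cre_Neg, with a ratio of -0.42 (-0.66 to -0.18) and sublibrary 3 at 0.08. The receptors were near even. Nr3c1 was at 215 CPM in Cre_Pos and 199 CPM in Cre_Neg, a log2 ratio of 0.11 (0.05 to 0.17), and Nr3c2 at 217 and 224 CPM, a ratio of -0.046 (-0.10 to 0.01). Hsd11b1 had 3 Cre_Pos and 9 Cre_Neg UMIs, too few to compare.

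**Figure D2:**
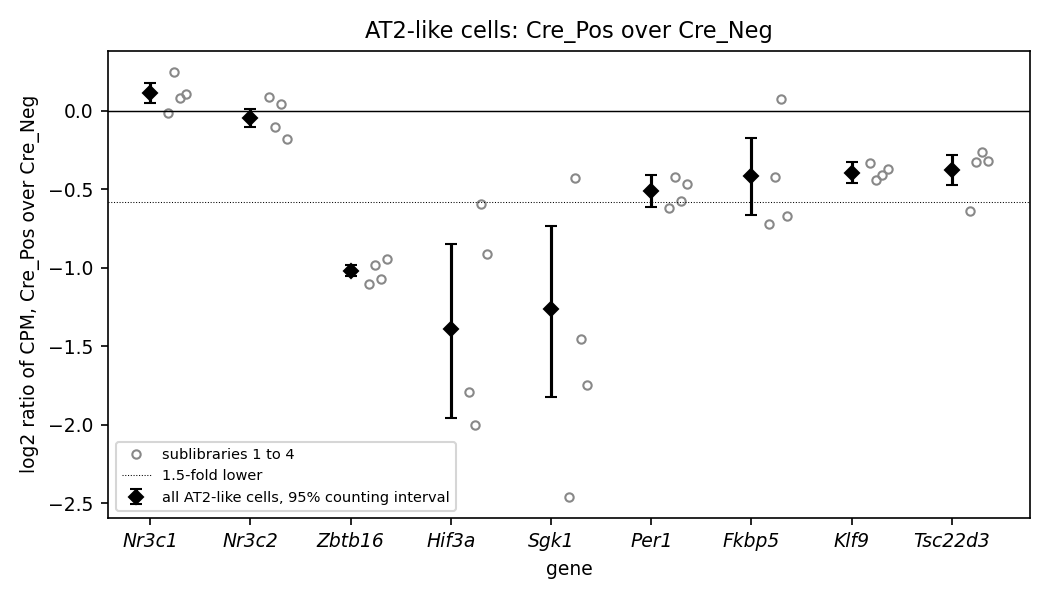
Log2 ratio of CPM, Cre_Pos over Cre_Neg, in AT2-like cells (vertical axis) for the 9 genes with at least 20 UMIs (horizontal axis); diamonds are all cells with the 95% counting interval, open circles the 4 sublibraries, and the dotted line 1.5-fold lower. Zbtb16 lies at -1.02 with tight sublibraries, Sgk1 and Hif3a are lower but spread widely, and Nr3c1 and Nr3c2 lie at 0.11 and -0.046.

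Other pathway genes were read by lists. Over all genes 1.95% passed as lower and 1.71% as higher, with a median of 0.01, and each list count in this paragraph stands beside these shares. Of 18 measured genes that glucocorticoids induce, 4 passed as lower and 0 as higher, with a median of -0.25. The 4 were Angptl4 (-1.20, 20 Cre_Pos and 55 Cre_Neg UMIs), an inhibitor of lipoprotein lipase, Pdk4 (-0.67), a kinase that restrains pyruvate oxidation, Glul (-0.65), glutamine synthetase, and Cebpd (-0.64), a transcription factor. Errfi1, a feedback inhibitor of the EGF receptor, was at -0.51 from 8649 Cre_Pos and 14691 Cre_Neg UMIs. Others of the list were on the opposite side, Lcn2, an iron-carrier binding protein, at 0.41 and Ddit4, an mTOR inhibitor, at 0.35. The receptor's chaperones and immunophilins (0 of 8 passed, median 0.02) and its coactivators and corepressors (0 of 8, median 0.00) were even, from -0.08 for Hsp90aa1 to 0.12 for Ptges3 among the chaperones. Of 15 clock genes, Per2 passed as lower at -0.60 and no gene passed as higher, with a median of -0.07; Arntl, which encodes BMAL1, was at -0.06, Clock at 0.00 and Bhlhe40 at 0.36. Of 5 measured inflammatory genes that glucocorticoids repress, none passed, with Ptgs2, an inducible prostaglandin synthase, lowest at -0.22 among those with UMIs in both pools. Ccl20, a chemokine, had 0 Cre_Pos and 26 Cre_Neg UMIs, all in sublibraries 1 and 3. The 10 immediate early genes that respond to tissue dissociation also leaned down, with a median of -0.20 and 0 passing. Of these, 9 of 10 were below 0, against 47.8% of all genes. Together they had 727 CPM in Cre_Pos and 814 CPM in Cre_Neg, and their part in these results was not tested.

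The share of AT2-like cells with a Zbtb16 UMI was 87.5% in Cre_Pos and 91.0% in Cre_Neg, at median depths of 14347 and 11479 UMIs. After each cell was thinned to 2000 UMIs, with 19 Cre_Pos and 54 Cre_Neg shallower cells left out, the shares were 48.7% (45.9 to 51.5) and 71.5% (69.4 to 73.6). Free RNA held 1125 CPM of Zbtb16 in Cre_Pos and 1101 CPM in Cre_Neg. These values give the make-up of free RNA, not how much of it entered a cell. Its part in the Zbtb16 values was not tested. In B cells, taken as a class that should lack the gene, 3.80% of Cre_Pos and 5.41% of Cre_Neg cells had a UMI at median depths of 5268 and 5374 UMIs.

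In the classes next to AT2, 2 of 8 genes passed as lower among AT2 and Krt8 transitional cells, a class with markers of the state between AT2 and AT1, against 3.12% of all genes, and 0 passed as higher, against 2.78%. They were Zbtb16 (-1.21, 359 CPM in Cre_Pos and 828 CPM in Cre_Neg) and Per1 (-0.62). Among AT2 and secretory cells, which carry club cell genes, 4 of 9 genes passed as lower, against 3.98%, and 0 as higher, against 7.58%. Zbtb16 was at -1.65 (-1.76 to -1.53), 202 CPM in Cre_Pos and 632 CPM in Cre_Neg, with Per1 at -0.69, Klf9 at -0.66 and Hif3a at -1.35 from 12 and 16 UMIs. Both classes passed most AT2 markers, 8 of 9 and 9 of 9, and may hold cells on which Zbtb16, Sgk1 and Hif3a were chosen. Their counts of passing genes therefore carry no weight. The list of other induced genes leaned the opposite way in the AT2 and secretory cells, with 5 of 16 passing as higher, 3 as lower and a median of 0.12, against 0.03 for all genes. Pdk4 was at 1.88, Cdkn1c, a cell cycle inhibitor, at 1.07 and Anxa1, which encodes the anti-inflammatory annexin A1, at 0.84. The metallothioneins Mt1 and Mt2 had 46 and 38 UMIs in Cre_Pos, against 2 and 1 UMIs in Cre_Neg. Those lower were Rasd1, a small GTPase, at -1.26, Glul at -0.64 and Errfi1 at -0.59. Pdk4 was thus higher in Cre_Pos here and lower in Cre_Pos AT2-like cells, a difference that was not tested. In ciliated-like cells 2 of 8 genes passed as lower, against 4.03%, and 0 as higher, against 1.84%. Per1 was at 15.7, 17.9, 24.3 and 18.8 CPM in Cre_Pos and 52.4, 46.8, 58.3 and 53.3 CPM in Cre_Neg, a log2 ratio of -1.43 (-1.90 to -0.99), and Zbtb16 was at -0.80 (-1.15 to -0.48). In the same cells 7 of the 10 dissociation-linked immediate early genes passed as lower and 0 as higher, and their median was -1.01. All 10 were below 0, against 46.9% of all genes. Together they had 239 CPM in Cre_Pos and 542 CPM in Cre_Neg, and their part in the Per1 and Zbtb16 values was not tested. Of the sex calls described below, 98.0% of Cre_Pos and 16.6% of Cre_Neg ciliated-like cells were Y only, so genotype and sex cannot be told apart there in the pooled value. Among Y-only ciliated-like cells alone, Per1 was at -0.78 (-1.36 to -0.23), 19.4 CPM in Cre_Pos and 33.5 CPM in Cre_Neg, and Zbtb16 at -0.26 (-0.71 to 0.17). Whether these Cre_Pos cells had lost the exons was not tested.

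Classes outside the Shh-Cre domain differed between the pools as well. Neuroendocrine cells, given last here, are epithelial and so are not outside that domain. In other blood endothelium 1 of 10 genes passed as lower, against 2.1% of all genes, and 0 as higher, against 2.47%. It was Fkbp5, at 19.7, 23.1, 25.7 and 27.3 CPM in Cre_Pos and 42.3, 48.7, 48.8 and 47.2 CPM in Cre_Neg. The ranges did not overlap, with a log2 ratio of -0.97 (-1.13 to -0.82). Zbtb16 there was at -0.45 (-0.47 to -0.43), 1783 CPM in Cre_Pos and 2427 CPM in Cre_Neg, and Tsc22d3 at -0.51 (-0.63 to -0.39), while Klf9 at 0.03 and Per1 at -0.04 were even. In the same cells 6 of the 10 dissociation-linked immediate early genes passed as higher in Cre_Pos, with a list median of 0.82. Together they had 1943 CPM in Cre_Pos and 1134 CPM in Cre_Neg, and their part in these differences was not tested. In aerocytes 0 of 9 genes passed as lower, against 1.94%, and 0 as higher, against 3.05%, with Zbtb16 at -0.41 (-0.45 to -0.37) and Fkbp5 at -1.58 (-2.20 to -0.97) from 43 Cre_Pos and 51 Cre_Neg UMIs, sublibrary 4 being at 0.03. There too 6 of the 10 immediate early genes passed as higher and 0 as lower, with a median of 0.59, and together they had 1736 CPM in Cre_Pos and 1238 CPM in Cre_Neg, whose part was not tested. Of the other induced genes, 0 of 16 passed either way in other blood endothelium, 1 of 11 as lower in aerocytes and 2 of 18 as lower in ciliated-like cells. The list medians were 0.02, -0.27 and -0.23 in that order, against -0.01, 0.01 and 0.02 for all genes. In B cells 2 of 9 genes passed as lower, against 5.61%, and 0 as higher, against 4.81%. They were Fkbp5 (-1.27, 50 Cre_Pos and 153 Cre_Neg UMIs) and Nr3c2 (-0.96). The class joined clusters 10 and 29, and cluster 29 held 8 of 184 Cre_Pos and 67 of 222 Cre_Neg B cells, while the Y-only share of the sex calls described below was 2.53% in Cre_Pos and 25.7% in Cre_Neg. The part of either in these values was not tested. Zbtb16 in B cells was at 2.14, but sublibrary 1 stood at 4.63 and the other three lay between -1.09 and -0.31. In monocytes 1 of 8 passed as higher, against 4.23%, and 0 as lower, against 3.75%, and in neuroendocrine cells 1 of 9 as higher, against 3.66%, and 0 as lower, against 2.91%. The gene was Hsd11b1 in both, at 1.13 (40 Cre_Pos and 18 Cre_Neg UMIs) and at 1.28 (162 and 36 UMIs), and free RNA of the 2 pools held 19.3 and 14.5 CPM of it.

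Each pool mixed cells of both sexes, and the labels do not give the number of male and female mice. Cells were called Xist only when they had Xist UMIs, an RNA made from the inactive X of females, and none of 4 Y-linked genes, and Y only in the reverse case. Among AT2-like cells, Y-only cells were 10.9% of the calls for Cre_Pos and 20.8% for Cre_Neg, and in other blood endothelium 2.93% and 16.6%. This split compared cells within a pool, a contrast that the choice of the genes did not use. In AT2-like cells it is still not independent of the choice. The Cre_Neg cells read there included 1349 Xist-only and 354 Y-only cells, so the same levels enter both. Calls per cell also read free RNA, whose part in them was not tested. The split was made after the data had been seen, and sex, the individual mouse and the handling of each mouse cannot be told apart.

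Zbtb16 was higher in Xist-only than in Y-only cells in both pools of 5 classes, and in the 1 pool of ciliated-like cells that had enough of both. In other blood endothelium the Xist-only and Y-only cells of Cre_Pos had 1846 and 152 CPM, a log2 ratio of 3.60 (3.35 to 3.86), and those of Cre_Neg had 3017 and 163 CPM, a ratio of 4.21 (4.06 to 4.37). In aerocytes the values were 1351 and 65.4 CPM in Cre_Pos, a ratio of 4.37, and 1991 and 199 CPM in Cre_Neg, a ratio of 3.33. In AT2-like cells they were 532 and 137 CPM in Cre_Pos, a ratio of 1.96 (1.78 to 2.14), and 1205 and 175 CPM in Cre_Neg, a ratio of 2.78 (2.68 to 2.89). Among AT2 and Krt8 transitional cells the ratio was 2.07 in Cre_Pos and 3.46 in Cre_Neg, and among AT2 and secretory cells 1.17 and 2.19. In Cre_Neg ciliated-like cells, where the gene is low, they were 68.5 and 41.6 CPM, a ratio of 0.72. All 4 sublibraries had the same sign in each of these. The 137 to 175 CPM of Y-only AT2-like cells stood above the 15.5 CPM of alveolar macrophages and below the 1125 and 1101 CPM of free RNA in Cre_Pos and Cre_Neg.

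**Figure D3:**
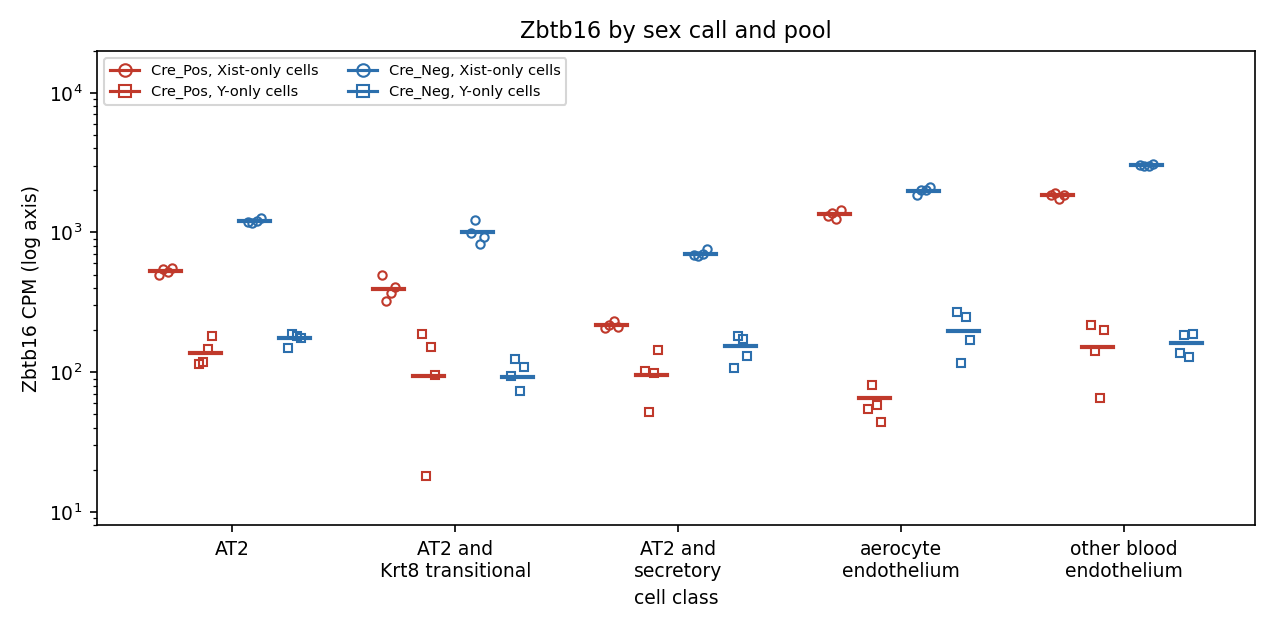
Zbtb16 CPM on a log axis in 5 cell classes (horizontal axis), for Xist-only (circles) and Y-only cells (squares) of Cre_Pos (red) and Cre_Neg (blue); symbols are the 4 sublibraries and bars the sum over them. Every Xist-only value lies above every Y-only value of the same class and pool, as with 1846 against 152 CPM in Cre_Pos and 3017 against 163 CPM in Cre_Neg other blood endothelium.

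Other induced genes shared the direction in endothelium, and the receptor did not. In other blood endothelium 5 of 10 genes passed as higher in Xist-only cells of Cre_Pos, against 4.4% of all genes, and 5 of 9 in Cre_Neg, against 4.66%. They were the same 5 genes. Beside Zbtb16 these were Per1 (ratios of 2.25 in Cre_Pos and 1.57 in Cre_Neg), Fkbp5 (1.83 and 1.75), Klf9 (1.40 and 0.70) and Tsc22d3 (1.27 and 1.32), the last an X-linked gene. Sgk1 went the other way in both pools, at -0.72 (-0.94 to -0.49) in Cre_Pos and -0.78 (-0.94 to -0.63) in Cre_Neg, and was the 1 gene to pass as lower, against 2.43% and 3.19%. Nr3c1 was at -0.10 (-0.24 to 0.05) and 0.00 (-0.11 to 0.11). The median over all genes was -0.11 in Cre_Pos and -0.05 in Cre_Neg, small beside these ratios. The Y-only cells behind these values were few, 114 in Cre_Pos and 294 in Cre_Neg, so that Fkbp5 in Cre_Pos rests on 6 Y-only UMIs.

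**Figure D4:**
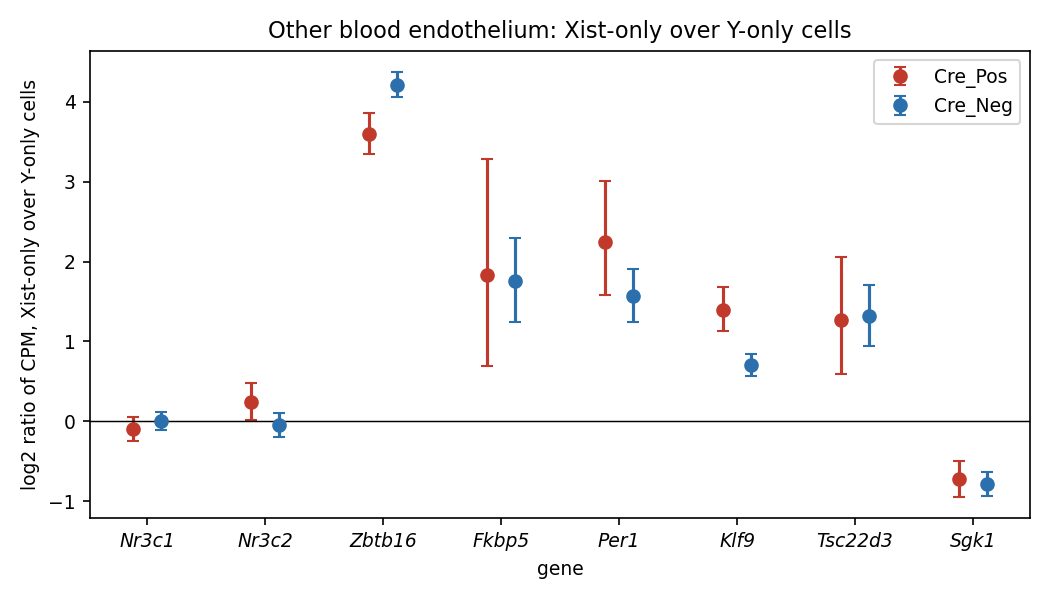
Log2 ratio of CPM, Xist-only over Y-only cells (vertical axis), of 8 of the genes in other blood endothelium of Cre_Pos (red) and Cre_Neg (blue), with 95% counting intervals. Zbtb16 lies at 3.60 and 4.21, Fkbp5, Per1, Klf9 and Tsc22d3 lie above 0 in both pools, Sgk1 below 0, and Nr3c1 at -0.10 and 0.00.

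In aerocytes the same contrast had 4 of 8 genes higher in Cre_Pos, against 6.3%, and 5 of 8 in Cre_Neg, against 6.35%, with none lower, against 1.92% and 2.88%. Per1 was at 1.32 in Cre_Pos and 0.97 in Cre_Neg, and Klf9 at 1.27 and 0.80. In AT2-like cells 2 of 9 passed as higher in Cre_Pos, against 5.3%, and 5 of 9 in Cre_Neg, against 5.34%, with none lower, against 2.66% and 1.79%. These AT2-like counts cover Zbtb16, Sgk1 and Hif3a, which were chosen in AT2 cells, and carry no weight. Zbtb16 and Per1 passed in both pools, Per1 at 0.73 in Cre_Pos and 0.72 in Cre_Neg. Fkbp5 was at -0.18 (-0.78 to 0.47) in Cre_Pos and 2.06 (1.41 to 2.80) in Cre_Neg, Tsc22d3 at 0.04 and 0.76, and Hif3a at 1.04 and 2.85, the last from 2 and 4 Y-only UMIs. Of the further induced genes measured in other blood endothelium, 6 of 13 passed as higher and 0 as lower in Cre_Pos, against 4.4% and 2.43% of all genes, and 3 of 13 as higher and 1 as lower in Cre_Neg, against 4.66% and 3.19%. The list medians were 0.69 in Cre_Pos and 0.26 in Cre_Neg. Fam107a (2.22 in Cre_Pos and 1.61 in Cre_Neg) and Map3k6 (2.13 and 1.32), the first an actin-binding stress protein and the second a stress-pathway kinase, passed in both pools. In aerocytes the list medians were 0.44 in Cre_Pos and 0.37 in Cre_Neg, against -0.06 and 0.00 for all genes. Among AT2 and Krt8 transitional cells they were 0.61 and 0.26, against -0.05 and 0.03. Not every class had such a lean in the median. In AT2-like cells 5 of 18 passed as higher and 1 as lower in Cre_Pos, against 5.3% and 2.66% of all genes, with a median of 0.13. In Cre_Neg 4 of 18 passed as higher and 1 as lower, against 5.34% and 1.79%, with a median of -0.05. The median was 0.36 in Cre_Pos and -0.27 in Cre_Neg among AT2 and secretory cells, and -0.14 in Cre_Neg ciliated-like cells.

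The comparison of pools was also read within each sex call. Ciliated-like cells were 2 of 7108 Xist-only and 100 of 528 Y-only kept cells in Cre_Pos. In Cre_Neg they were 887 of 5356 and 177 of 1148. Whether the Y-only Cre_Pos cells had lost the exons was not tested, so the Y-only ratios compare pools and not known deletions. Xist-only AT2-like cells of Cre_Pos and Cre_Neg had 532 and 1205 CPM, a log2 ratio of -1.18 (-1.22 to -1.14). There 4 of 9 genes passed as lower and 0 as higher, beside 2% and 1.8% of all genes. These are mostly the cells on which Zbtb16, Sgk1 and Hif3a were chosen, so the count supports nothing, and the 4th gene was Fkbp5 at -0.67. In Xist-only other blood endothelium 3 of 10 passed as lower, against 2.08%, and 0 as higher, against 2.88%: Zbtb16 at -0.71 (-0.73 to -0.69), Fkbp5 at -1.16 (-1.32 to -0.99) and Tsc22d3 at -0.66 (-0.79 to -0.53). Xist-only aerocytes had Zbtb16 at -0.56 and Fkbp5 at -2.05 (-2.72 to -1.40), which was the 1 of 9 genes to pass as lower, against 1.99%, with 0 higher, against 3.23%. Among Y-only cells the Zbtb16 ratio was smaller or uncertain in AT2-like cells and other blood endothelium, at -0.35 (-0.56 to -0.15) and -0.09 (-0.39 to 0.20). Among AT2 and Krt8 transitional cells it was -1.37 in Xist-only and 0.02 in Y-only cells, and among AT2 and secretory cells -1.70 and -0.68 (-1.31 to -0.02). In Y-only aerocytes it was -1.60 (-2.24 to -1.003) from 29 Cre_Pos and 114 Cre_Neg UMIs, the 1 of 7 genes to pass as lower, against 3.94%, with 0 higher, against 3.49%. In Y-only other blood endothelium 3 of 8 genes passed as lower, against 4.84%, and 0 as higher, against 2.52%. They were Klf9 at -0.74 (-1.05 to -0.45), Per1 at -0.92 (-1.74 to -0.17) and Fkbp5 at -1.23 (-2.77 to 0.04), the last from 6 Cre_Pos and 34 Cre_Neg UMIs. In Y-only AT2-like cells 0 of 7 genes passed as lower, against 3.31%, and 1, Fkbp5, as higher at 1.58 (0.68 to 2.49; 26 Cre_Pos and 20 Cre_Neg UMIs), against 3.32%. Whether the genotype ratio differs between the sexes was not tested.

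Cell by cell, the Xist-only AT2 populations were shifted as a whole. The median was 3.77 Zbtb16 UMIs per 10000 UMIs of the cell in Cre_Pos and 10.97 in Cre_Neg, and the lower quartile of Cre_Neg, 6.99, lay near the upper quartile of Cre_Pos, 7.34. Some Cre_Pos cells were as high as Cre_Neg cells, the 95th percentile being 16.2 in Cre_Pos and 24.5 in Cre_Neg. Y-only cells had medians of 0.81 and 1.03 in Cre_Pos and Cre_Neg.

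**Figure D5:**
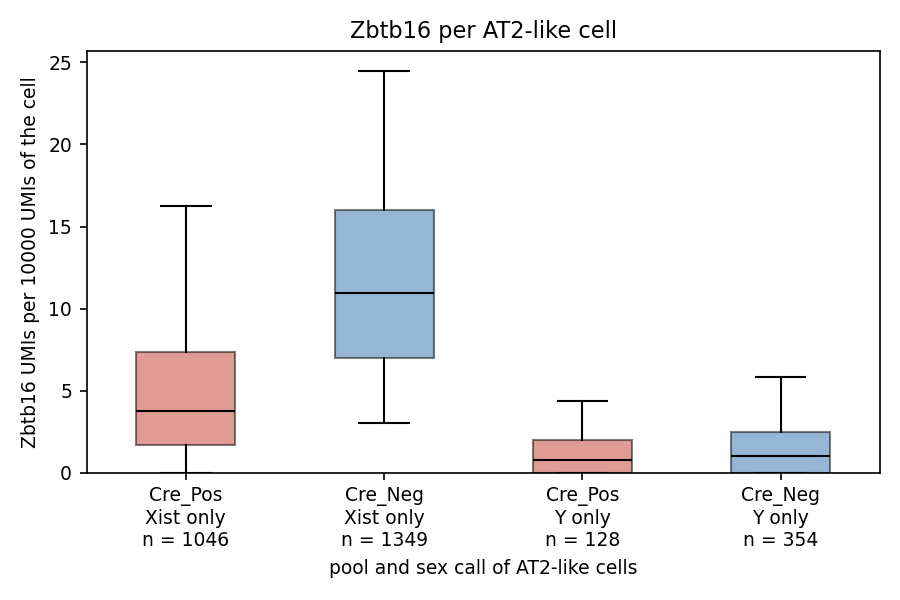
Zbtb16 UMIs per 10000 UMIs of a cell (vertical axis) in AT2-like cells by pool and sex call (horizontal axis, with the number of cells); boxes span the quartiles with the median as a line, and whiskers the 5th to 95th percentile. Xist-only medians are 3.77 in Cre_Pos and 10.97 in Cre_Neg, and both Y-only medians are near 1.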

How the data were processed

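The measured values are counts: the authors deposited a matrix of whole-number UMI counts per barcode and gene for 4 sublibraries of mouse lung, with a table naming each barcode's pool. Per the labels, cells were prepared with Parse Evercode kits. The submitters' processing notes name the build GRCm39 and the deposited gene table mm10, so no coordinates are taken from the files; the aligner and its settings were not given in the sources used here. The lowest barcode had 10 UMIs, so the matrix holds empty barcodes.

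Of all barcodes, 16579 had 500 or more genes, 16541 of them had a mitochondrial share of 15% or less, and Scrublet, run per sublibrary, removed 185 doublets (1.12%). Counts were normalised, 30 principal components and 15 neighbours were used, and Leiden clustering at resolution 1 gave 40 clusters (scanpy 1.11.5, leidenalg 0.10.2, numpy 2.4.6, scipy 1.17.1). The 10 genes, the other pathway genes and sex genes were left out of the variable genes. A marker passed with CPM + 10 at least 4 times the median cluster and a UMI in 10% of cells. At least 3 markers named a cluster, and a second type with 75% of its markers passing gave a double name. These thresholds were set after seeing the data.

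Counts were summed per class and pool. Ratios have exact conditional binomial intervals, levels exact Poisson and shares Clopper-Pearson intervals. For calls, 3 counts stood in for a pool with 0 UMIs. The sublibraries are aliquots, so their SD is technical, and PCR or cell sampling beyond the UMIs is not covered. Classes with at least 100 cells per pool were compared between pools. On simulated AT2 counts the rule recovered 98.0% of 200 genes changed 2-fold, called 1.93% of 14476 unchanged genes and intervals covered 95.5% of true ratios. The changed genes were drawn from those with at least 100 UMIs, and the counts were Poisson. Genes with fewer UMIs and variation between cells or mice are therefore not covered by the recovery.

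The 10 genes and all gene lists were chosen with earlier results of these data known. The genes named are the 10, list members that passed or else the extremes of a list, and the genes most alike over classes. Lcn2, Ddit4, Errfi1, Arntl, Clock and Ccl20 were named after their values were seen, as were the steroid-responsive genes of the sex contrast. Alternatives were other scalings, filters, cell classes, sexes, thinning and leaving out each sublibrary.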

Additional observations from a re-analysis of the deposited data

Results flagged for a closer look

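In Cre_Neg AT2-like cells Fkbp5 was at 13.5 CPM in sublibrary 3, below 16.6 to 16.8 CPM in the other three. In aerocytes Per1 was at 72.3 CPM in sublibrary 1 of Cre_Pos, against 91.6 to 92.7 CPM in the others, and at 79.3 CPM in sublibrary 3 of Cre_Neg, against 94.6 to 96.3 CPM. In other blood endothelium Tsc22d3 was at 51.8 CPM in sublibrary 1 of Cre_Pos, against 45.1 to 46.1 CPM, and Hif3a at 4.06 CPM in sublibrary 4 of Cre_Neg, against 1.18 to 1.39 CPM. These are 5 of 53 groups of 4 values checked, and chance sets apart about 1 in 20. Fkbp5 was lower in Cre_Pos in all sublibraries of Xist-only AT2-like cells (-0.67) and higher in all of Y-only ones (1.58). Per1 was lower in AT2-like cells (-0.51) and higher in neuroendocrine cells (0.20), and Tsc22d3 was lower in AT2-like cells (-0.38) and higher in B cells (0.32). These 3 differences between groups were not tested.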

How the results depend on the processing

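Of 126 log2 ratios of the 9 genes in AT2-like cells under 14 alternatives, 113 stayed within the SD over sublibraries and 118 kept their sign, and with a sublibrary left out 36 of 36 stayed within it. In Y-only cells Zbtb16 was at -0.35, Klf9 at -0.32, Tsc22d3 at 0.22, Sgk1 at 0.083 and Hif3a at 0.20, with 0 genes passing as lower and 1 as higher; in Xist-only cells Zbtb16 was at -1.18. In cells thinned to 2000 UMIs Per1 was at -0.73, Klf9 at -0.49 and Sgk1 at 0.063, on few UMIs. Klf9 was at -0.46 in AT2-like cluster 2 and -0.33 in cluster 3, an alternative chosen after seeing the data. In the sex contrast, with at least 2 UMIs per call, Zbtb16 was at 4.62 in Cre_Neg other blood endothelium. In Y-only cells Fkbp5 was at -1.23 in other blood endothelium and Per1 at -0.78 in ciliated-like cells. The alternatives of these sex-contrast, endothelial and ciliated values were also chosen after seeing the data. The 14 alternatives all kept the direction of Zbtb16 in AT2-like cells. The cause of these changes was not tested.

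No paired analysis was possible because each sublibrary holds both pools as aliquots of 1 suspension per genotype, and no test was run. One pool per genotype, unknown sex numbers, cells not traced to mice and rebuilt class names limit every comparison, and genes under about 40 UMIs are imprecise.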

Other observations

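Per2, the clock repressor paired with Per1, passed as lower in AT2-like cells at -0.60 (525 Cre_Pos and 951 Cre_Neg UMIs), while Nr1d1, a target of the clock, was at -0.17 and Cry1 at 0.16. Hsd11b2, the enzyme that inactivates the hormone, had 33 Cre_Pos and 36 Cre_Neg UMIs in AT2-like cells, a log2 ratio of 0.13 (-0.59 to 0.86).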
